A study of Homo sapiens with 54 samples.

Results

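ATF4, ATF3, ATF5, DDIT3, CEBPG, TRIB3, CHAC1, DDIT4, SESN2 and INHBE are regulators and outputs of the stress response run by the transcription factors ATF4 and CHOP, the protein made from DDIT3. The 10 genes were chosen by symbol from the 33119 genes of the count tables, and all 10 were found in both tables. Their RNA was counted from transcript 3′ ends in 54 libraries from 6 established human cancer cell lines. The colorectal lines SW48 and SW620 were grown with trametinib, which blocks the kinases MEK1 and MEK2, with palbociclib, which blocks the CDK4 and CDK6 kinases of the cell cycle, or as controls. The stomach lines NCI-N87 and MKN-45 and the breast lines BT-474 and BT-20 were grown with afatinib, an irreversible inhibitor of the ERBB receptors, or as controls. Set 1 holds trametinib and control libraries of SW48 and SW620, and set 2 holds libraries of all 6 lines, palbociclib among them. Each of the 18 groups has 3 libraries. The labels state no dose, exposure time or control vehicle. They also do not say whether a group's 3 libraries are separate cultures; p-values therefore measure the spread between those libraries alone, which may be technical.

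When amino acids run short or proteins misfold, kinases phosphorylate the translation initiation factor eIF2α, which slows general translation and favours translation of the ATF4 mRNA. The ATF4 protein then pairs with other basic leucine zipper factors and switches on genes for amino acid synthesis, uptake and tRNA charging, together with most of the genes described here. ATF4 is controlled to a large extent at translation, so its mRNA is not a measure of its protein, which was not measured.

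ATF4-dependent genes often carry a composite C/EBP-ATF response element near their start, a site that a C/EBP factor and an ATF factor occupy together. RefSeq promoter windows of 300 bases (250 before to 50 after the annotated start, build GRCh38.p14) were matched for 9 of the 10 genes; INHBE had no entry. The element was searched as TGATGNAA on either strand, which reads TTNCATCA on the other strand. It was found in 2 of the 9 windows, those of CHAC1 and ATF3, and in 1003 of 27305 promoters of the same length (3.67%). The cAMP response element TGACGTCA was in 0 of the 9 windows and in 1.98% of all promoters. In CHAC1 the match TTGCATCA lies 209 to 202 bases before the start, and in ATF3 the match TGATGGAA lies 191 to 184 bases before it. The windows are chr15:40953221-40953520 (plus strand) for CHAC1, chr1:212565157-212565456 (plus strand) for ATF3 and chr12:57520465-57520764 (minus strand) for DDIT3. They are shown because CHAC1 and ATF3 hold the only matches among these genes and DDIT3 encodes CHOP itself; capitals mark the element, and the DDIT3 window holds no match. A match in letters is a description and does not show that a factor binds there. Sites outside these windows, or near another start of the same gene, were not searched.
CHAC1: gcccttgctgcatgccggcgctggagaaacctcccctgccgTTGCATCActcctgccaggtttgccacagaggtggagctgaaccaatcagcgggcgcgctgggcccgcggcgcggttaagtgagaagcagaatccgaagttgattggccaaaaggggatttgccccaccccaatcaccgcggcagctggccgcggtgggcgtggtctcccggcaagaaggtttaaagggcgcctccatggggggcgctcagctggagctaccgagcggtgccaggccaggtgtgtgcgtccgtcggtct
ATF3: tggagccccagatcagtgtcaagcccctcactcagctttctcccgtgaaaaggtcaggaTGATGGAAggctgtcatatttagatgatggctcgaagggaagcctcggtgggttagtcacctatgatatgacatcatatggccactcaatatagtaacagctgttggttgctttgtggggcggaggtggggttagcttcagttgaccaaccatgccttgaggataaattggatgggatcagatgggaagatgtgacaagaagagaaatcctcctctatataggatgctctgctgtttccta
DDIT3: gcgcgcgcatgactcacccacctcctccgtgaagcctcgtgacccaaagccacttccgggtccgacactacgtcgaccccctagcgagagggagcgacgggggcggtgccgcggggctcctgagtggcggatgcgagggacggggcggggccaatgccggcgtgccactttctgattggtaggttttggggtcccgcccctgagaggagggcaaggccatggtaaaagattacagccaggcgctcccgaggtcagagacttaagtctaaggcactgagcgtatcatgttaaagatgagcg

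Libraries held 3401565 to 12806042 counts. Levels below are CPM, counts scaled to a common library size, after TMM scaling within a set, and fold changes are log2 values of drug over control from edgeR's quasi-likelihood fit across all genes. A gene was called where its p, adjusted by Benjamini and Hochberg over all genes tested, was under 0.05. Each library was correlated, across well-expressed genes other than those described here, with the means of the groups of its own line and set. By this measure 9 of 54 libraries lay nearer to another group of their line than to their own. NCI-N87 control 1 correlated at 0.954 with the other controls of its line and at 0.988 with the afatinib libraries. SW620 trametinib 1 of set 2 correlated at 0.987 with its own group and at 0.994 with the controls. SW620 controls 1, 2 and 3 of set 1 correlated at 0.926, 0.926 and 0.795 with their own group. With the trametinib group of set 1 these controls correlated at 0.974, 0.978 and 0.808. CDX2, an intestinal transcription factor, averaged 96.8 ± 7.18 CPM in untreated SW48 and 34.2 ± 1.36 CPM in untreated SW620 of set 2. It also averaged 122 ± 25.3 CPM in NCI-N87 and 65.2 ± 0.569 CPM in MKN-45. Of the other gut markers, CDX1 was at 0 CPM in both colorectal lines, and VIL1 averaged 0.203 CPM in SW48 and 58.4 CPM in SW620. In SW620 controls of set 1 CDX2 averaged only 2.76 ± 0.818 CPM. There the breast markers GATA3 and PGR averaged 77.4 ± 13.3 CPM (6.28 ± 0.854 CPM in set 2) and ran from 0.205 to 193 CPM. ERBB2, which encodes the receptor HER2, differed between the sets in SW48 controls (988 ± 50.9 CPM in set 1 and 101 ± 6.10 CPM in set 2), so the sets are given apart. In bulk RNA, fewer cells that express a gene and less RNA per cell cannot be told apart.

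In untreated cells of set 2 the regulators spanned a wide range of levels, and SW48 was the highest line for 6 of them. ATF3 (chromosome 1, 212565407 to 212620777 in GRCh38), an early stress factor of the ATF family, averaged 43.4 ± 3.92 CPM in SW48 (SD, n = 3 here and for the levels that follow) and 3.32 ± 0.799 CPM in MKN-45, the lowest line. CHAC1 (chromosome 15, 40953471 to 40956512), which degrades glutathione, averaged 485 ± 42.01 CPM in SW48 and 119 ± 6.18 CPM in BT-20, which came next and overlapped SW620, down to 11.04 ± 4.69 CPM in MKN-45. DDIT4 (chromosome 10, 72273924 to 72276036), known as REDD1, which restrains the growth kinase complex mTORC1, averaged 847 ± 31.4 CPM in SW48. SW48 libraries lay above those of every other line for these 3 genes and also for SESN2, ATF5 and CEBPG. SESN2 (chromosome 1, 28259518 to 28282491), a leucine sensor that restrains mTORC1, averaged 367 ± 41.2 CPM in SW48 and between 68.9 and 136 CPM in the other lines. ATF5 (chromosome 19, 49928906 to 49933935), an ATF factor linked to the mitochondrial stress response, averaged 242 ± 14.5 CPM in SW48 and 61.2 ± 3.37 CPM in BT-474, the next line. The sixth gene, CEBPG (chromosome 19, 33373709 to 33382686), a dimer partner of ATF4, varied least, with 189 ± 5.38 CPM in SW48 and 59.6 ± 15.7 CPM in MKN-45, a ratio of 3.17.

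ATF4 itself (chromosome 22, 39520559 to 39522686) was highest in SW620 at 1018 ± 77.6 CPM and in SW48 at 910.2 ± 68.98 CPM, lines whose libraries overlapped, and lowest in MKN-45 at 186 ± 14.5 CPM. TRIB3 (chromosome 20, 380760 to 397559), a pseudokinase that ATF4 and CHOP induce and that feeds back on them, was highest in SW620 at 304 ± 15.9 CPM, with 239 ± 4.59 CPM in SW48 and 9.37 ± 1.23 CPM in MKN-45. INHBE (chromosome 12, 57455307 to 57458025), which encodes the βE subunit of the secreted activin proteins, averaged 95.5 ± 8.03 CPM in SW620 and 30.04 ± 2.17 CPM in SW48, while MKN-45 had 1 to 6 counts a library and BT-474 0 to 9. DDIT3 (chromosome 12, 57516588 to 57520517) was highest in BT-20 at 290.1 ± 17.9 CPM and in SW48 at 269.6 ± 2.47 CPM, whose libraries overlapped, and lowest in MKN-45 at 14.8 ± 4.86 CPM. By its mean MKN-45 was the lowest line for 7 of the 10 genes, though its libraries overlapped those of NCI-N87 for CHAC1, CEBPG and SESN2 and those of BT-474 for SESN2. NCI-N87 stood lowest for ATF5 and BT-474 for DDIT4 and INHBE, and for these last 2 genes the libraries of BT-474 and MKN-45 overlapped. The wide SDs of NCI-N87 come with its control 1, which was low for every gene of the group, for example 32.9 CPM of TRIB3 beside 131 and 146 CPM in controls 2 and 3. Differences between untreated lines were not tested.

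**Figure D1:**
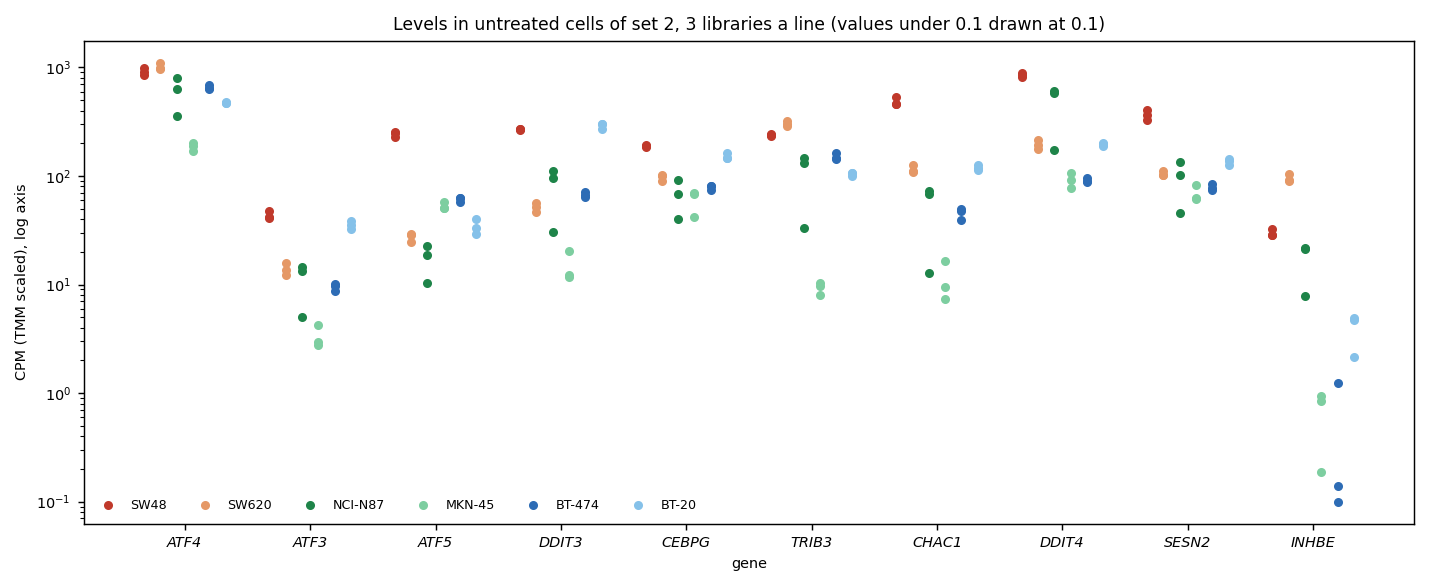
CPM on a log axis of the 10 regulators in untreated cells of set 2, 1 point a library and 3 libraries a line, coloured by cell line. SW48 has the highest points for 6 genes and MKN-45 the lowest mean for 7; values under 0.1 CPM are drawn at 0.1.

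In SW48, trametinib lowered all 10 regulators in each set, and palbociclib lowered all 10 in set 2. Among all genes tested, trametinib lowered 19.4% in set 1 and 30.1% in set 2, and palbociclib lowered 29.2%; the shares that rose were 16%, 30% and 28.3% in the same order. In set 2 the trametinib and palbociclib groups share their controls, so the values of these 2 comparisons are set side by side only. The median log2 fold change of the 10 genes was −3.91 with trametinib in set 2, −3.10 with palbociclib in set 2 and −4.24 with trametinib in set 1, while the median of all tested genes was between 0.0056 and 0.0078. In set 1 the share of reads that the table assigns to no gene was 69.7%, 73.8% and 70.8% in the trametinib libraries and 64.2%, 58.8% and 53.6% in the SW48 controls; its part in the result was not tested.

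Of the transcription factors, ATF4 had 174, 194 and 192 CPM with trametinib and 270.5, 272 and 248.8 CPM with palbociclib, against 846, 901 and 983 CPM in the controls of set 2. Every treated library lay under every control, and the log2 fold change was −2.30 (SE 0.07, adjusted p = 4.2e-11) with trametinib and −1.79 (SE 0.07, adjusted p = 5e-11) with palbociclib. In set 1 ATF4 had 152, 139.96 and 213 CPM with trametinib, against 639, 648 and 616 CPM in the controls (−1.90, SE 0.15, adjusted p = 7.6e-05). DDIT3, whose protein CHOP promotes cell death under lasting stress, fell further than ATF4. It had 11.8, 11.8 and 14.2 CPM with trametinib and 29.1, 26.8 and 29.9 CPM with palbociclib, against 267, 269.7 and 272 CPM in the controls of set 2, with log2 fold changes of −4.44 and −3.23 in that order. In set 1 DDIT3 had 11.5, 13.6 and 20.2 CPM with trametinib, against 311, 286 and 277 CPM in the controls (−4.26, SE 0.20, adjusted p = 5.3e-06). ATF3 stood at 2.17 to 3.23 CPM with trametinib and 2.20 to 3.46 CPM with palbociclib, against 40.6 to 47.9 CPM in the controls of set 2. The drug libraries of ATF3 did not overlap the controls, and its fold changes were −4.08, SE 0.15 with trametinib and −3.84, SE 0.15 with palbociclib. In set 1 ATF3 rested on 4, 4 and 11 counts with trametinib, and its log2 fold change was −4.46, SE 0.41, adjusted p = 0.00014, or −5.05 without trametinib 3. ATF5 and CEBPG, which with ATF4 had the smallest falls of the 10, changed by −1.82 and −2.13 with trametinib in set 2, −1.56 and −2.02 with palbociclib, and −1.88 and −2.21 with trametinib in set 1.

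Among the effectors, CHAC1 had 9.49, 11.7 and 10.2 CPM with trametinib and 21.05, 28.4 and 27.5 CPM with palbociclib, against 456, 533 and 465 CPM in the controls of set 2. This was 47.0-fold lower with trametinib (−5.55, SE 0.10, adjusted p = 1.1e-12) and 18.9-fold lower with palbociclib (−4.24, SE 0.11, adjusted p = 8.2e-13), with no overlap of libraries. In set 1 CHAC1 had 0.915, 1.84 and 18.3 CPM with trametinib, from 5, 8 and 99 counts, against 205, 229.8 and 283 CPM in the controls. Trametinib 3 of set 1 thus stood well above the other trametinib libraries, and the SE was the widest of the 10 genes in that comparison (−5.04, SE 0.73, adjusted p = 0.0014). Without trametinib 3 the log2 fold change of CHAC1 was −7.46 (adjusted p = 3.28e-05). TRIB3 had 18.5, 17.5 and 18.7 CPM with trametinib and 32.9, 30.04 and 28.9 CPM with palbociclib, against 235, 244 and 239 CPM in the controls of set 2. Its log2 fold changes were −3.73, SE 0.07 with trametinib, −2.96, SE 0.08 with palbociclib and −4.23, SE 0.16 with trametinib in set 1.

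The mTORC1 brakes fell as well. DDIT4 had 20.1, 25.9 and 22.2 CPM with trametinib and 38.6, 38.1 and 29.9 CPM with palbociclib, against 843, 879.7 and 817 CPM in the controls of set 2. It was 37.7-fold lower with trametinib (−5.24, SE 0.09, adjusted p = 9.6e-13) and 23.7-fold lower with palbociclib (−4.57, SE 0.09, adjusted p = 7.7e-14), and 7 of 12690 tested genes had a lower fold change with palbociclib. In set 1 DDIT4 had 12.4, 18.8 and 37.4 CPM with trametinib, against 525, 555 and 489.9 CPM in the controls (−4.50, SE 0.35). SESN2 fell less than DDIT4, with log2 fold changes of −2.84 with trametinib and −2.38 with palbociclib in set 2 and −2.80 with trametinib in set 1. INHBE had the lowest level of the 10 genes in the SW48 controls of each set. In set 2 it had 1, 15 and 17 counts with trametinib and 9, 13 and 1 with palbociclib, against 270, 283 and 310 in the controls. In set 1 it had 1 count in each trametinib library, against 54, 54 and 62 counts in the controls. INHBE passed the test in all 3 comparisons (adjusted p between 1.3e-09 and 0.00012), but with so few counts its fitted fold change, plotted beside those of the other genes, depends on the prior count.

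**Figure D2:**
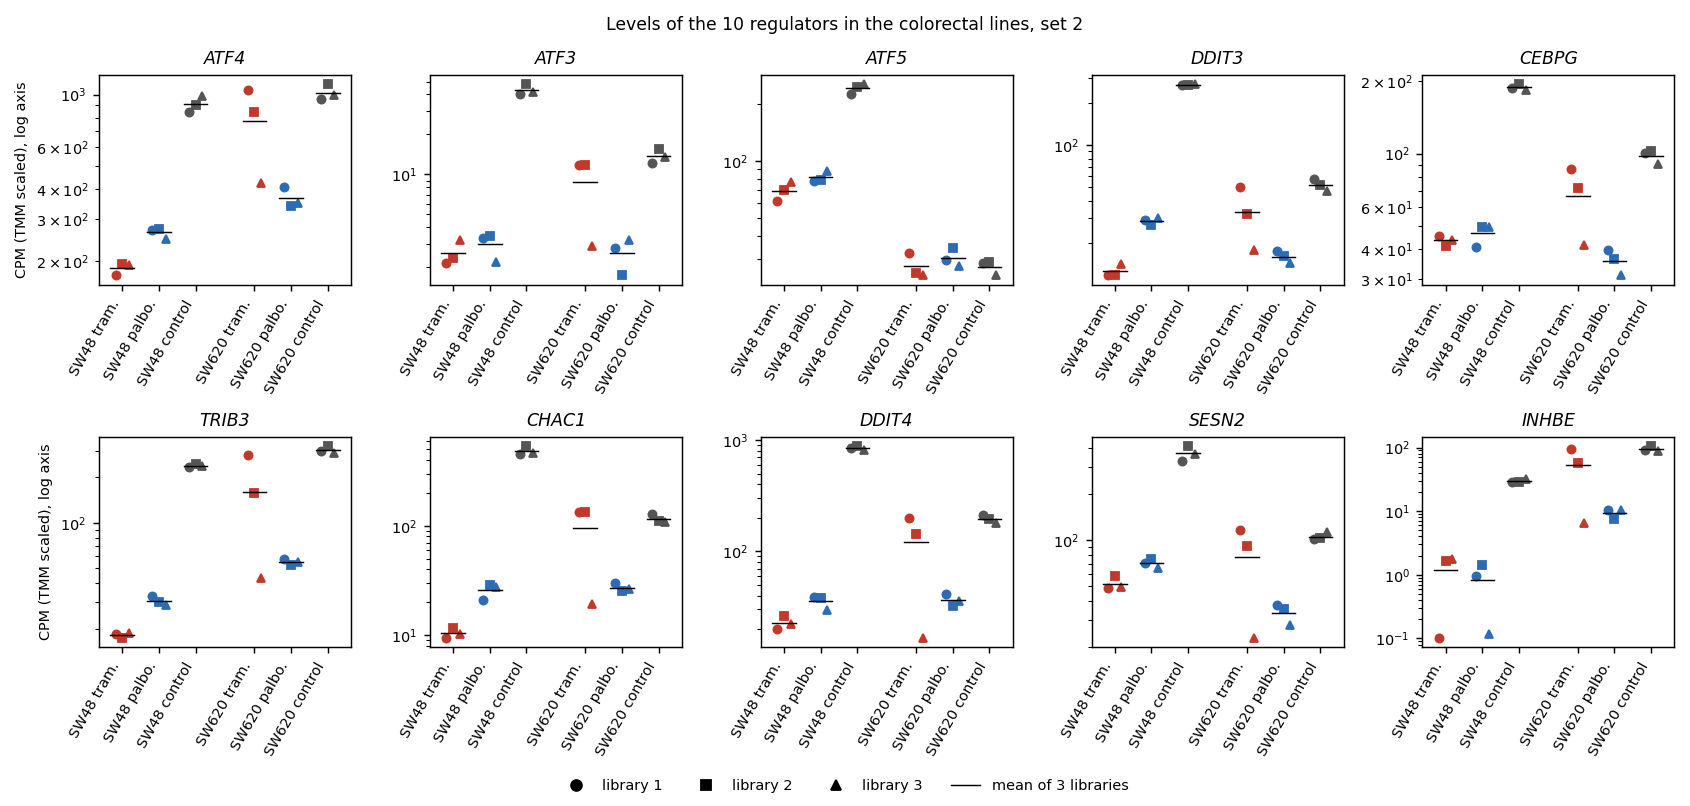
CPM on a log axis of the 10 regulators in SW48 and SW620 of set 2 with trametinib, palbociclib or as controls, with 1 symbol shape a library and a bar at the mean of 3 libraries. In SW48 all treated libraries lie under the controls for all 10 genes, and in SW620 trametinib library 3 lies near or under the palbociclib libraries while trametinib library 1 lies near the controls, except in the ATF5 panel, where the SW620 groups overlap.

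Compared directly in SW48, trametinib left 7 of the 10 regulators lower than palbociclib did, where 20.9% of all tested genes were lower. CHAC1 differed most (−1.31, SE 0.14, adjusted p = 8.8e-06), followed by DDIT3 (−1.20, SE 0.12, adjusted p = 3e-06). TRIB3, DDIT4, ATF4, SESN2 and ATF5 had log2 fold changes of −0.77, −0.67, −0.52, −0.46 and −0.25. ATF3, CEBPG and INHBE did not pass the test, with 95% intervals of −0.91 to 0.43, −0.31 to 0.083 and −1.14 to 2.05 for trametinib over palbociclib. Doses are unknown, so the drugs are compared as given.

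In SW620, palbociclib lowered 9 of the 10 regulators, where 17.4% of all tested genes were lower. INHBE had 10.3, 7.49 and 10.3 CPM with palbociclib, against 92.3, 105 and 89.7 CPM in the controls, and showed the largest fall of the 10 (−3.31, SE 0.13, adjusted p = 1.5e-07). TRIB3 had 57.4, 52.9 and 55.05 CPM with palbociclib, against 300.4, 321 and 289 CPM in the controls (−2.42, SE 0.08, adjusted p = 4.4e-08). DDIT4 had 41.03, 32.2 and 35.5 CPM with palbociclib, against 212, 194 and 179 CPM in the controls (−2.38, SE 0.10, adjusted p = 1.9e-07). For these genes no palbociclib library reached a control. ATF3 fell by 2.37, CHAC1 by 2.04, DDIT3 by 1.65, SESN2 by 1.61, ATF4 by 1.43 and CEBPG by 1.41 on the log2 scale, each with separate libraries and an adjusted p of at most 4.1e-05. ATF5 was the exception, with 29.7, 34.5 and 27.6 CPM with palbociclib, against 28.7, 28.99 and 24.7 CPM in the controls. Its groups overlapped and it did not pass the test (0.20, SE 0.12, adjusted p = 0.22; 95% interval −0.062 to 0.47).

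With trametinib, 0 of the 10 regulators were called in SW620 in either set, and no gene of the 13081 tested in set 1 or the 12919 tested in set 2 was called by edgeR (0% of all genes). At an unadjusted p under 0.05 there were 1 regulator and 366 genes in set 1, and 2 regulators and 2204 genes in set 2, while DESeq2 called 0 regulators in either set and 14 and 208 genes. In set 1 CHAC1 had 62.6, 81.1 and 85.7 CPM with trametinib, against 43.2, 52.9 and 61.8 CPM in the controls. Its treated libraries lay just above the controls (0.51, SE 0.21, adjusted p = 0.92). DDIT4 had 128, 152 and 154 CPM with trametinib, against 147, 151 and 49.5 CPM in the controls of set 1, where control 3 stood low. DDIT3 had 31.4, 33.04 and 28.6 CPM with trametinib, against 29.8, 34.2 and 63.7 CPM in the controls of set 1, where control 3 stood high. Without control 3 the count of called regulators was again 0 of 10. The median log2 fold change of the 10 was −0.04 in set 1, and for ATF4 the 95% interval ran from −0.41 to 0.26.

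In set 2 the SW620 trametinib libraries differed among themselves. TRIB3 had 279, 157 and 43.3 CPM with trametinib, against 300.4, 321 and 289 CPM in the controls. INHBE had 95.6, 57.2 and 6.58 CPM with trametinib, against 92.3, 105 and 89.7 CPM in the controls. DDIT4 had 201, 143 and 16.8 CPM with trametinib, against 212, 194 and 179 CPM in the controls. For these genes trametinib 1 lay beside or within the controls, trametinib 2 under them, and trametinib 3 under the palbociclib libraries too. CHAC1 had 133, 132 and 19.4 CPM with trametinib, against 127, 110.5 and 109 CPM in the controls, so that trametinib 1 and 2 stood above the controls and trametinib 3 far under them. Averaged over the 10 genes, the log2 level relative to the controls was 0.02, −0.39 and −2.11 in trametinib 1, 2 and 3, and −1.75, −1.96 and −1.91 in palbociclib 1, 2 and 3. All 10 genes had a negative fold change with trametinib in set 2 (median −0.61), and the smallest adjusted p among them was 0.24, for CEBPG (−0.57, SE 0.21). Trametinib 1 was the library nearest to the controls across genes, so leaving it out favours a larger fall and is no separate test. Without that library 3 regulators were called lower where 3.54% of all genes were, namely DDIT3 (−1.05, adjusted p = 0.0247), CEBPG (−0.79, adjusted p = 0.0429) and TRIB3 (−1.61, adjusted p = 0.0493).

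Compared directly in SW620, trametinib left 7 of the 10 regulators higher than palbociclib did, where 15.9% of all tested genes were higher. ATF4 (1.03, SE 0.25, adjusted p = 0.0096), CEBPG (0.85, SE 0.22) and DDIT3 (1.02, SE 0.29) were higher in every trametinib library than in any palbociclib library. INHBE, CHAC1, ATF3 and TRIB3 also passed the test, at 2.46, 1.76, 1.73 and 1.49, but their groups overlapped through trametinib 3. DDIT4 (1.68, SE 0.60, adjusted p = 0.054), SESN2 (1.15, SE 0.42, adjusted p = 0.06) and ATF5 (−0.19, SE 0.14, adjusted p = 0.31) did not pass. The count rested on single libraries: it was 9 without trametinib 3, where 14.2% of all genes were higher, 4 without trametinib 1, where 15.2% were, 1 without trametinib 2 and 2 without any 1 of the palbociclib libraries. In these last 4 fits 22.8% to 25.1% of all genes were called in either direction, against 32.6% with all libraries. Without trametinib 1, INHBE was at 1.73 (adjusted p = 0.0486) and TRIB3 at 0.82 (adjusted p = 0.115).

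**Figure D3:**
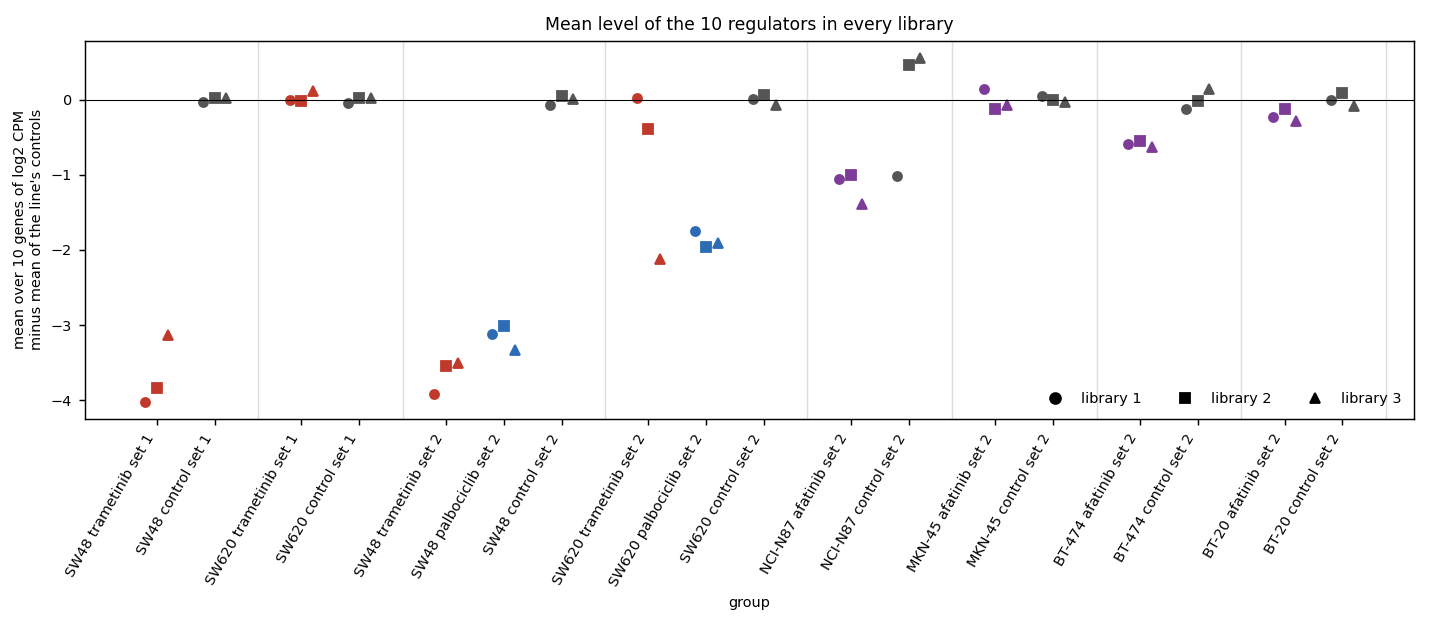
Mean over the 10 regulators of log2 CPM relative to the line's controls of the same set, 1 point a library, with drug groups left of their controls. SW48 libraries with either drug lie between −4.02 and −3.01, SW620 palbociclib libraries between −1.96 and −1.75, SW620 trametinib 3 of set 2 at −2.11 and NCI-N87 control 1 at −1.01.

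The drug effects differed between the colorectal lines. In set 1 the trametinib effect in SW620 exceeded that in SW48 for all 10 regulators, where 3.95% of all tested genes were higher, and in set 2 for all 10, where 15.3% were. For DDIT3 the effect was −0.64 in SW620 and −4.44 in SW48 of set 2, a difference of 3.82, SE 0.34, adjusted p = 3.4e-06. For ATF4 it was −0.42 in SW620 and −2.30 in SW48 of set 2 (1.91, SE 0.30, adjusted p = 0.00037). For CHAC1 it was 0.51 in SW620 and −5.04 in SW48 of set 1 (5.57, SE 0.96, adjusted p = 0.0064), a difference of 7.98 without SW48 trametinib 3. A positive difference means a value further up in SW620, either a weaker fall or, as for CHAC1 in set 1, no fall. The SW620 trametinib libraries of set 2 differed among themselves. For DDIT3 their log2 levels relative to the controls were −0.03, −0.69 and −1.51 in trametinib 1, 2 and 3. With palbociclib the effect was also higher in SW620 for all 10 genes, where 14.5% of all tested genes were higher. The palbociclib difference was small for ATF4 (0.37, SE 0.12, adjusted p = 0.033), TRIB3 (0.56, SE 0.10, adjusted p = 0.00075) and CEBPG (0.62, SE 0.14). It was larger for CHAC1 (2.21, SE 0.16), DDIT4 (2.20, SE 0.14) and ATF5 (1.78, SE 0.14).

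**Figure D4:**
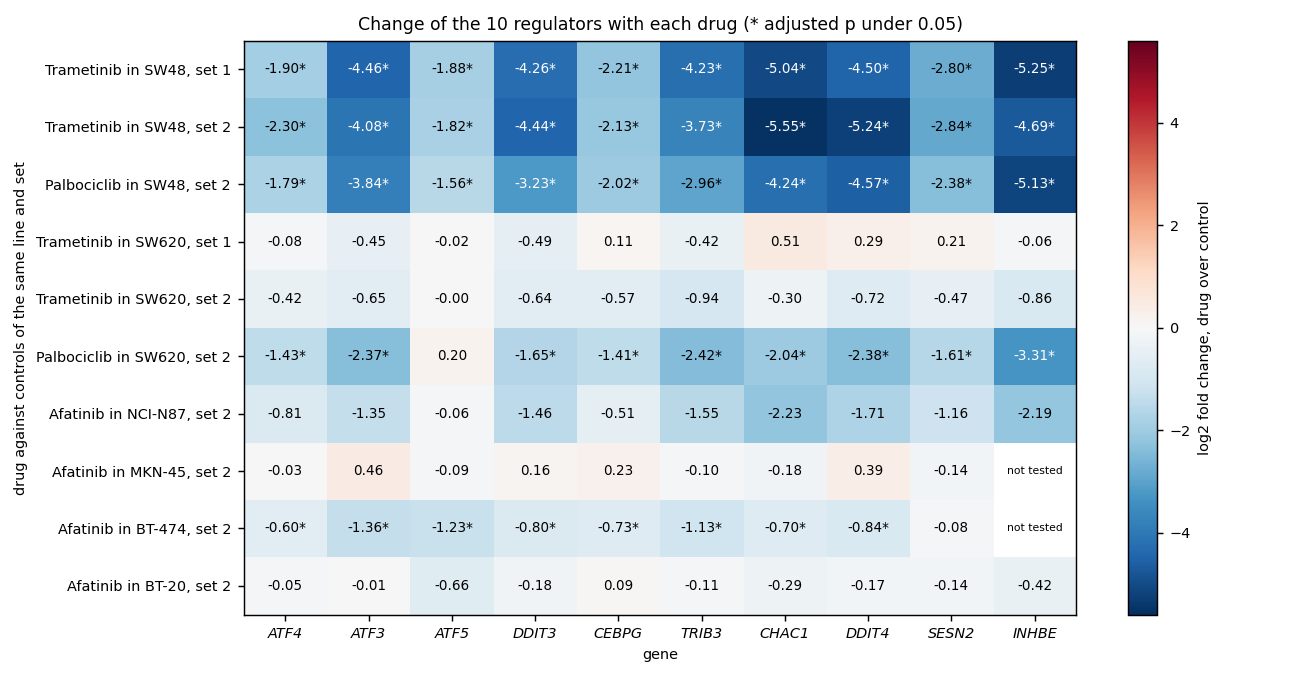
Log2 fold change, drug over control, of the 10 regulators (columns) in the 10 drug comparisons (rows), coloured on a scale centred on 0, with a star where the adjusted p was under 0.05. Stars cover all genes in the SW48 rows, 9 genes in the SW620 palbociclib row and 8 genes in the BT-474 row; INHBE was not tested in MKN-45 and BT-474.

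Afatinib in NCI-N87, the line with the most ERBB2 RNA, gave lower values of the regulators that were not called with all libraries. CHAC1 had 12.5, 10.9 and 8.75 CPM with afatinib, against 12.7, 68.1 and 72.1 CPM in the controls. DDIT4 had 152, 167 and 92.5 CPM with afatinib, against 173, 604 and 585 CPM in the controls. DDIT3 had 32.9, 29.5 and 23.1 CPM with afatinib, against 30.5, 94.8 and 112 CPM in the controls. Controls 2 and 3 stood well above every afatinib library for these genes, while control 1 lay beside the afatinib libraries. All 10 fold changes were negative (median −1.40), 0 of 10 were called by edgeR, where 0% of 12472 tested genes were lower, and 8 of 10 had an unadjusted p under 0.05, as did 12.2% of all genes. DESeq2 called 3 of them, DDIT3, SESN2 and INHBE, and 37 genes in all. Control 1 correlated more closely with the afatinib group than with its own, so leaving it out favours a larger fall and is no separate test. Without control 1, 9 of the 10 were called lower, where 8.21% of all genes were. CHAC1 was then at −2.68 (adjusted p = 6.67e-05), INHBE at −2.52, DDIT4 at −2.10, TRIB3 at −1.97 and ATF4 at −1.08 on the log2 scale. ATF5 was the gene not called without control 1 (−0.32, adjusted p = 0.25), with 14.9, 18.2 and 16.4 CPM with afatinib, against 10.2, 18.8 and 22.6 CPM in all 3 controls.

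In MKN-45, the line with the most MET RNA, afatinib changed 0 of the 9 regulators tested, and 0% of the 12358 genes tested were called, with 1 regulator and 664 genes at an unadjusted p under 0.05 and 0 genes called by DESeq2. DDIT4, that regulator, had 121, 132 and 106 CPM with afatinib, against 106, 76.8 and 91.8 CPM in the controls, and afatinib 3 and control 1 met at 106 CPM (0.39, SE 0.13, adjusted p = 0.82). ATF4 had 196, 185 and 160.2 CPM with afatinib, against 188, 199.9 and 171 CPM in the controls, with a 95% interval of the log2 fold change from −0.25 to 0.18. DDIT3 had 15.7, 14.7 and 18.2 CPM with afatinib, against 11.8, 20.4 and 12.2 CPM in the controls. Neither gene separated the groups. INHBE, at 0 to 6 counts a library, was not tested. The afatinib effect in NCI-N87 minus that in MKN-45 passed the test for 0 of the 10 regulators (lower in 0.00725% of all genes, with 7 regulators and 11.4% of all genes at an unadjusted p under 0.05). Without NCI-N87 control 1 it passed for 8, all lower in NCI-N87, where 3.5% of all genes were lower. That choice of library favours a larger fall in NCI-N87.

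In BT-474, a breast line with high ERBB2 RNA, afatinib lowered 8 of the 9 regulators tested, where 21.8% of all tested genes were lower. TRIB3 had 71.8, 69.98 and 63.96 CPM with afatinib, against 147, 163 and 143 CPM in the controls (−1.13, SE 0.08, adjusted p = 3.1e-07). ATF5 had 22.96, 22.8 and 31.6 CPM with afatinib, against 57.3, 62.98 and 63.3 CPM in the controls (−1.23, SE 0.12, adjusted p = 5.8e-06). DDIT3 had 39.6, 37.6 and 37.8 CPM with afatinib, against 70.7, 66.6 and 64.7 CPM in the controls (−0.80, SE 0.08, adjusted p = 1.1e-05). No afatinib library reached a control for these genes, but the fall was at most 2.56-fold, for ATF3 (−1.36, SE 0.23). DDIT4, CEBPG, CHAC1 and ATF4 changed by −0.84, −0.73, −0.70 and −0.60. SESN2 had 66.9, 82.3 and 72.7 CPM with afatinib, against 77.8, 84.99 and 74.1 CPM in the controls, overlapping groups that did not pass (−0.082, SE 0.09, adjusted p = 0.49). INHBE, with 9, 9 and 7 counts with afatinib, against 0, 1 and 9 counts in the controls, was not tested.

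In BT-20, the line with the most EGFR RNA, 0 of the 10 regulators were called lower with afatinib, and 0 higher, where 0.312% of all tested genes were lower; 4 regulators had an unadjusted p under 0.05, as did 12.5% of all genes, and DESeq2 called 1, ATF5, and 163 genes in all. CHAC1 had 94.1, 100.2 and 93.6 CPM with afatinib, against 118, 114 and 126 CPM in the controls, and ATF5 had 22.2, 26.3 and 15.9 CPM with afatinib, against 29.5, 40.4 and 33.1 CPM in the controls. The afatinib libraries lay under the controls for each of these genes, with log2 fold changes of −0.29 for CHAC1 (SE 0.07, adjusted p = 0.099) and −0.66 for ATF5 (SE 0.16, adjusted p = 0.103). ATF4 had 475, 455 and 433 CPM with afatinib, against 485, 475 and 471 CPM in the controls, which overlapped. The afatinib effect was lower in BT-474 than in BT-20 for 7 of the 10 regulators, where 13.6% of all tested genes were lower. The difference was −1.36, SE 0.23, adjusted p = 0.00045 for ATF3, −1.04, SE 0.11, adjusted p = 2.4e-06 for TRIB3 and −0.57, SE 0.09, adjusted p = 0.00029 for ATF4, and ATF5 (−0.59, SE 0.23, adjusted p = 0.071), SESN2 and INHBE did not pass.

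Other genes of the pathway were counted in lists. Among all tested genes in SW48, trametinib lowered 30.1% and raised 30% in set 2. Trametinib lowered 19.4% of them in set 1, and palbociclib lowered 29.2% and raised 28.3%. In SW48 with trametinib in set 2, 13 of 13 tested amino acid synthesis enzymes were lower (median −2.20), 9 of 9 amino acid transporters (median −1.92), 19 of 20 cytosolic tRNA synthetases with 1 higher (median −1.29) and 12 of 12 other stress targets (median −2.12). ASNS, asparagine synthetase, averaged 41.98 ± 1.496 CPM with trametinib and 695 ± 75.9 CPM in the controls (−4.07, SE 0.08). SLC7A11, the cystine transporter, averaged 20.2 ± 3.06 CPM with trametinib and 184 ± 12.5 CPM in the controls (−3.20, SE 0.10). FAM129A, also known as NIBAN1, averaged 1.06 ± 0.207 CPM with trametinib and 178 ± 18.6 CPM in the controls (−7.39, SE 0.14), a larger fall than that of any regulator. GDF15, a stress-induced secreted factor, averaged 35.1 ± 4.19 CPM with trametinib and 736 ± 79.4 CPM in the controls (−4.41, SE 0.11). In set 1 the same lists had 13 of 13, 9 of 9, 15 of 20 and 12 of 12 genes lower. With palbociclib in SW48, 12 of 13 enzymes, 9 of 9 transporters, 15 of 20 synthetases with 3 higher, and 12 of 12 stress targets were lower. ASNS averaged 61.7 ± 3.18 CPM with palbociclib and 695 ± 75.9 CPM in the controls, and CEBPB, a C/EBP factor, averaged 69.3 ± 1.46 CPM with palbociclib and 447 ± 29.1 CPM in the controls.

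The genes upstream of ATF4 and those of the other arms of the unfolded protein response were more mixed. With trametinib in SW48 of set 2, 30.1% of all tested genes were lower and 30% higher. Of 7 genes for eIF2 kinases, eIF2α and its phosphatase subunits, 4 were lower and 2 higher in SW48 with trametinib in set 2 (median −0.28). Among them PPP1R15A, a stress-induced phosphatase subunit also called GADD34, averaged 30.2 ± 0.908 CPM with trametinib and 88.8 ± 4.24 CPM in the controls (−1.57, SE 0.07), while EIF2AK3, the endoplasmic reticulum kinase PERK, changed by −0.28, SE 0.11. Of 16 chaperones and folding genes of the ATF6 and XBP1 arms, 7 were lower and 4 higher (median −0.12), beside the same shares of all genes. HERPUD1 averaged 66.1 ± 2.74 CPM with trametinib and 169 ± 9.95 CPM in the controls, and CALR, the chaperone calreticulin, averaged 855 ± 30.5 CPM with trametinib and 410.2 ± 18.3 CPM in the controls. With palbociclib in SW48, 7 of the 16 were higher and 7 lower (median −0.08), and in set 1 with trametinib 3 were higher and 11 lower (median −0.80). Among all tested genes 28.3% were higher and 29.2% lower with palbociclib, and 16% higher and 19.4% lower with trametinib in set 1. Other lists also moved in SW48 of set 2. Trametinib lowered 8 of 8 immediate early genes (median −1.68), 4 of 6 tested hypoxia-type genes and 7 of 11 p53 targets with 1 higher. The p53 list shares GDF15 and BBC3 with the other stress targets. Palbociclib lowered 7 of 8 immediate early genes with 1 higher and 5 of 6 hypoxia-type genes, while of the p53 targets 4 of 11 were higher and 3 lower (median 0.20), where 28.3% of all genes were higher and 29.2% lower. Their part in the fall of the regulators was not tested.

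In SW620 with palbociclib, 11 of 13 amino acid synthesis enzymes were lower and 1 higher (median −1.25), 8 of 9 transporters lower (median −0.64), and 14 of 20 tRNA synthetases lower and 2 higher (median −0.62). Of the other stress targets 9 of 13 were lower and 2 higher (median −0.98), and of the 16 chaperones and folding genes 5 were higher and 3 lower (median 0.055). Among all tested genes 17.6% were higher and 17.4% lower. ASNS averaged 39.8 ± 2.79 CPM with palbociclib and 332 ± 42.5 CPM in the controls (−3.01, SE 0.11). PHGDH, which starts serine synthesis, averaged 31.03 ± 3.65 CPM with palbociclib and 172 ± 12.5 CPM in the controls (−2.43, SE 0.10). Immediate early genes went the other way in this line, with 4 of 8 higher and 1 lower (median 0.46), and so did 6 of 11 p53 targets, with 1 lower, where 17.6% of all genes were higher. JUNB, an AP-1 subunit, averaged 76.7 ± 9.96 CPM with palbociclib and 37.8 ± 4.42 CPM in the controls (1.06, SE 0.12). With trametinib in SW620, 0 genes of these lists were called in either set. Without trametinib 1 of set 2, 7 of 20 tRNA synthetases, 4 of 13 other stress targets, 2 of 13 enzymes and 0 of 9 transporters were lower. In that fit 3.54% of all genes were lower.

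In BT-474 with afatinib, 10 of 12 amino acid synthesis enzymes (median −0.97), 6 of 9 transporters (median −0.48) and 17 of 20 tRNA synthetases with 1 higher (median −0.43) were lower. Among all genes tested in BT-474, 21.8% were lower and 20.9% higher. ASNS averaged 76.1 ± 4.396 CPM with afatinib and 232 ± 26.5 CPM in the controls (−1.59, SE 0.09). Other stress targets were divided, with 7 of 13 lower and 3 higher. STC2, a secreted glycoprotein induced by stress, averaged 623 ± 15.9 CPM with afatinib and 353 ± 26.6 CPM in the controls (0.83, SE 0.07), and FAM129A averaged 6.94 ± 1.45 CPM with afatinib and 34.2 ± 5.32 CPM in the controls (−2.29, SE 0.17). Of the 16 chaperones and folding genes 6 were higher and 1 lower, where 20.9% of all genes were higher. HSPA5, the chaperone BiP, averaged 986 ± 78.3 CPM with afatinib and 756 ± 34.3 CPM in the controls (0.40, SE 0.07). Of the immediate early genes 6 of 7 were lower in BT-474, of the hypoxia-type genes 5 of 7 were lower with 1 higher, and of the p53 targets 5 of 10 were higher with 2 lower. Their part in the fall of the regulators was not tested. In BT-20, where 0.312% of all tested genes were lower, 0 of 13 enzymes and 0 of 20 tRNA synthetases were called. There 1 of 9 transporters, SLC7A5, was lower (−0.41, SE 0.06). Of 15 other stress targets 1 was lower and 1 higher, and of 9 hypoxia-type genes 1 was higher. Lower too were 2 of 16 chaperones and folding genes and 2 of 8 immediate early genes. EGR1, an immediate early gene, averaged 26.3 ± 4.03 CPM with afatinib and 129 ± 2.88 CPM in the controls in BT-20 (−2.27, SE 0.10). In NCI-N87 0 genes of these lists were called with all libraries, and without control 1 there were 10 of 12 enzymes, 8 of 9 transporters and 10 of 20 tRNA synthetases lower, with 3 synthetases higher. In that fit 8.21% of all genes were lower.

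**Figure D5:**
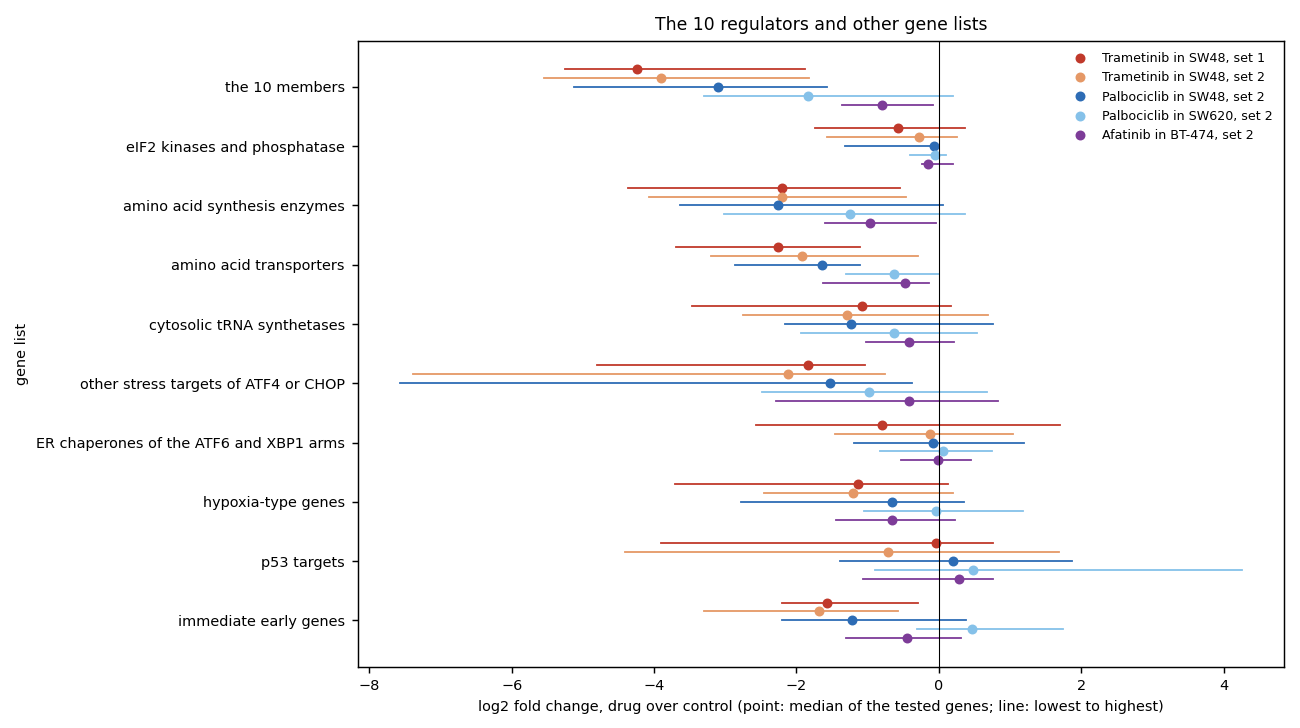
Log2 fold change, drug over control, of the 10 regulators and 9 gene lists in 5 comparisons; points are medians over the tested genes and lines run from the lowest to the highest gene. The regulators have the lowest median of the 10 rows in each SW48 comparison and in SW620 with palbociclib, and the ER chaperones straddle 0.

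The regulators moved together across libraries to different degrees. Each library of set 2 was expressed relative to the mean log2 CPM of its line's controls, and each gene was set against the mean of the other 9 over the 42 libraries; these values share libraries and scaling and are given as a description. Pearson's r was 0.95 to 0.99 for 8 genes, 0.85 for INHBE and 0.69 for ATF5. Without the 9 SW48 libraries ATF5 was at 0.01 and INHBE at 0.65, while the other 8 were between 0.87 and 0.97. The 8 genes outside the group whose values followed the mean of the 10 most closely were EIF2S2, PSPH, MTHFD2, CEBPB, VEGFA, XBP1, YARS and SLC7A1, with r between 0.968 and 0.985 over 42 libraries. Over the 12 libraries of set 1 their r was between 0.891 and 0.992, and without SW48 between 0.893 and 0.958. EIF2S2, which encodes the β subunit of eIF2, stood first at 0.985, and PSPH, the last enzyme of serine synthesis, next at 0.984. DDIT3 overlaps MARS and MBD6 on the other strand, with up to 3618 counts of MARS and 1265 of MBD6 a library, and ATF5 overlaps NUP62, with up to 1023. The strand setting used in counting is not stated. The values of DDIT3 and ATF5 may therefore hold reads of these neighbours or lack some of their own.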

How the data were processed

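Total RNA (500 ng) was made into 3′ end libraries with a Lexogen QuantSeq kit, per the labels' protocols. Per the submitters' processing notes, Trimmomatic, STAR and featureCounts were used with build hg38; neither versions nor the strand setting of the counting are stated. The deposited values are raw counts per gene, whole numbers that were not normalized. The first of the 2 tables also holds 5 lines of reads without a gene (39.7% to 73.8% of a library's reads), which stayed out of library sizes and tests. The second repeats the 12 libraries of set 1 with identical values, and these were used as set 1 only. Libraries of set 1 held 4063382 to 10622670 counts and those of set 2 held 3401565 to 12806042.

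Each comparison was fitted on the libraries of its own groups with edgeR 4.0.16 (R 4.3.3), with filterByExpr (minimum count 10, minimum total 15), TMM scaling and the two-sided quasi-likelihood test, adjusted by Benjamini and Hochberg over all genes tested. The standard error is the log2 fold change divided by the square root of the F statistic, and 95% intervals use the test's degrees of freedom. Differences between lines are interaction terms of a fit on both lines. CPM values were scaled over all libraries of a set, and log2 CPM has a prior count of 2. Alternatives were DESeq2 1.42.0, its size factors in edgeR, no filter on low counts, all groups of a set in 1 fit, a replicate block and leaving out each library.

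The 10 genes and the lists were chosen with earlier results of these data known, the lists from general knowledge of the pathway. All 10 are described in every comparison, and of each list up to 4 called genes with the largest absolute log2 fold change and no overlap of libraries are named; exceptions are values given for contrast. Likeness was ranked over the 7480 genes averaging a log2 CPM of 4 or more. Replicate numbers were not used to pair libraries, and the labels state no pairing. Same-numbered libraries did not deviate together in every pair of any comparison, which with so few libraries cannot exclude pairing. Promoters are from RefSeq tables of build GRCh38.p14, and gene positions are from the same assembly, which the counting build hg38 shares.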

Additional observations from a re-analysis of the deposited data

Results flagged for a closer look

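These results are listed because the same drug moved a gene differently in 2 lines, by the interaction test of edgeR with Benjamini-Hochberg adjustment. Each value is the log2 fold change in the line named first minus that in the other.

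For trametinib in set 1, SW620 minus SW48 was 1.84 for ATF4, 4.03 for ATF3, 1.86 for ATF5, 3.77 for DDIT3, 2.33 for CEBPG, 3.82 for TRIB3, 5.57 for CHAC1, 4.79 for DDIT4, 3.02 for SESN2 and 5.24 for INHBE (adjusted p 0.0001 to 0.0064). For trametinib in set 2 it was 1.91 for ATF4, 3.46 for ATF3, 1.83 for ATF5, 3.82 for DDIT3, 1.58 for CEBPG, 2.81 for TRIB3, 5.28 for CHAC1, 4.54 for DDIT4, 2.39 for SESN2 and 3.85 for INHBE (adjusted p 2.8e-06 to 0.015). Each of these 10 genes was called lower in SW48 in each set, where 19.4% of all tested genes were lower in set 1 and 30.1% in set 2. They were not called in SW620, where 0% of all tested genes were called in either set. In set 2 the SW620 trametinib libraries differed among themselves, with trametinib 3 under the palbociclib libraries for several of the genes. Without SW48 trametinib 3 of set 1 the difference was 7.98 for CHAC1 and 4.63 for ATF3. In set 2 it was 2.14 for TRIB3 and 3.12 for INHBE without SW620 trametinib 1, and 3.24 for INHBE without SW48 trametinib 1.

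For palbociclib, SW620 minus SW48 was 0.37 for ATF4, 1.48 for ATF3, 1.78 for ATF5, 1.60 for DDIT3, 0.62 for CEBPG, 0.56 for TRIB3, 2.21 for CHAC1, 2.20 for DDIT4, 0.78 for SESN2 and 1.83 for INHBE (adjusted p 4.9e-08 to 0.033). Of these genes ATF5 was called lower in SW48 and not called in SW620, and the other 9 were called lower in each line. Among all tested genes palbociclib lowered 29.2% in SW48 and 17.4% in SW620. Without SW48 palbociclib 2 the difference of INHBE was 2.43. The trametinib and palbociclib values of set 2 share their control libraries.

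For afatinib, BT-474 minus BT-20 was −0.57 for ATF4, −1.36 for ATF3, −0.63 for DDIT3, −0.84 for CEBPG, −1.04 for TRIB3, −0.43 for CHAC1 and −0.68 for DDIT4 (adjusted p 2.4e-06 to 0.026). These 7 genes were called lower in BT-474, where 21.8% of all tested genes were lower, and not called in BT-20, where 0.312% were lower.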

How the results depend on the processing

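Of 98 called values of the 10 regulators, 1241 of 1300 refits under the 6 kinds of alternative kept direction and call, 59 lost the call and 0 changed sign. The 59 were 27 in trametinib against palbociclib in SW620, 7 in the same comparison in SW48, 12 in the BT-474 minus BT-20 difference, 11 in the palbociclib difference and 2 in BT-474. With all groups of a set in 1 fit, called regulators numbered 8 in NCI-N87 with afatinib (8.75% of all genes called in either direction), 2 in NCI-N87 minus MKN-45 (2.69%), 2 in BT-474 minus BT-20 (11.9%), 5 in the palbociclib difference (18%) and 3 in trametinib against palbociclib in SW48 (23%). With no filter they numbered 8 in NCI-N87 (0.937%), 4 in NCI-N87 minus MKN-45 (0.629%) and 2 in BT-20 (2.38%), and with DESeq2 3 in NCI-N87 (0.368%) and 1 in BT-20 (1.58%). Leaving out each library gave 0 to 9 in NCI-N87, 0 to 8 in NCI-N87 minus MKN-45, 0 to 3 in SW620 with trametinib in set 2 and 1 to 9 in trametinib against palbociclib in SW620. At the highest counts 16.4%, 9.3%, 6.71% and 28.8% of all genes were called in either direction, in the same order. The cause of these changes was not tested.

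The replicate block moved no count of called regulators by over 1.5 times (9 in the palbociclib difference, against 10 without it); correlations of same-numbered libraries ran from −0.156 to 0.118. It reversed ATF5 in NCI-N87 (0.00814) and ATF5 in SW620 with trametinib in set 1 (0.014). Sign changes on leaving out a library touched values that were not called. These were, in NCI-N87, ATF5 (−0.32 to 0.18); in MKN-45, ATF4 (−0.10 to 0.044), CHAC1 (−0.40 to 0.18) and TRIB3 (−0.21 to 0.041); in BT-20, ATF3 (−0.066 to 0.068). In NCI-N87 minus MKN-45 they were ATF5 (−0.20 to 0.28) and INHBE (−1.76 to 0.74), and in BT-474 minus BT-20 SESN2 (−0.018 to 0.13). In SW620 with trametinib they were ATF5 (−0.16 to 0.26), DDIT4 (−0.070 to 0.53) and INHBE (−0.18 to 0.093) in set 1, and ATF5 (−0.13 to 0.061) and CHAC1 (−0.61 to 0.19) in set 2. In trametinib against palbociclib in SW48 it was INHBE (−0.040 to 1.04). Depth limits INHBE in MKN-45 and BT-474, at 0 to 9 counts a library, and INHBE and ATF3 in treated SW48.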
